A study of Mus musculus with 16 samples.

Results

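The genes of the heat shock and cold shock responses were examined in whole brains of adolescent mice that had drunk water, nicotine, ethanol or both. They were chosen by name, with earlier results of these data known, as the usual transcript readouts of brain temperature and protein folding stress. They comprised 2 cold shock genes (Cirbp, Rbm3) and 8 heat shock genes (Hspa1a, Hspa1b, Hspa8, Hsp90aa1, Hsp90ab1, Hsph1, Dnajb1, Hspb1). All 10 were among the 24062 genes of the counts table, and all 10 passed the filter on low counts in every comparison. The question was whether ethanol drinking left a temperature or heat shock signature in the brain.

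The mice were female C57BL/6J, singly housed, with 4 sequenced per group and 16 in all, and each brain, cerebellum included, was taken at postnatal day 45. WW mice had water throughout. NW mice had 200 µg/ml nicotine in their bottles for 22 h per day, for 6 days alone and then through the remaining 4 days, when their short daily session offered water. Water-Ethanol mice had water in those bottles and 20% v/v ethanol in drinking-in-the-dark sessions on 4 days, with access of 2 h per session and 4 h in the last one, which ended at dissection. NE mice had both the nicotine bottles and the ethanol sessions. The nicotine bottles were taken away for each session, so NW and NE mice had no nicotine in the last 4 h before dissection. The study reported higher ethanol intake and blood ethanol in NE than in Water-Ethanol mice in the last session. Mice are named here by group and by the mouse number in the labels. The numbers run in blocks by group, from NE 2 to WW 21, so any order of handling that they follow cannot be told apart from treatment.

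Heat shock proteins are chaperones that bind unfolded proteins, refold them with ATP or hand them on for degradation. When unfolded proteins accumulate, for example on warming, the transcription factor HSF1 is released, binds heat shock elements in promoters and raises the inducible chaperone genes, while other family members are made at a high level in neurons at all times. CIRBP and RBM3 are RNA-binding proteins whose transcripts are known to rise with mild cooling and to fall with warming, and ethanol at intoxicating doses is known to lower body temperature in rodents.

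Total counts per mouse ran from 27100352 to 32880979. Levels are given as CPM, counts scaled to the total of each library with TMM, a correction for library composition, unless FPKM, which is also scaled to transcript length, is named. The summed CPM of 10 cerebellum markers, all 10 present in the table, ran from 1396 to 1546 in Water-Ethanol and from 1401 to 1517 in NE, but was 567 in WW 21 and 719 in NW 10, against 1617 and 1553 as the highest values of their groups. The precursor ribosomal RNA Rn45s, looked at after the data were seen, was 13408, 7353, 40561 and 4170 CPM in NW mice 7, 8, 10 and 11. It was between 2777 and 6121 CPM in the other groups. In whole tissue, fewer cells of a type and less RNA per cell cannot be told apart.

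The promoters of the inducible genes are shown first, because the heat shock element and the mild cold response element (TCCCCGCC, described for Cirbp) are the sequences through which these genes are known to respond. RefSeq windows of 300 bases, 250 before and 50 after the start site on GRCm38.p6, were found for 6 of the 10 members, while Rbm3, Hspa8, Hsp90aa1 and Hsp90ab1 had no entry. Both strands were searched for the 3-unit heat shock element, in which TTC, GAA and TTC follow each other with 2 free bases between them, for its 2-unit parts GAANNTTC and TTCNNGAA, which overlap it, and for TCCCCGCC. Over 32817 promoters of the same length, these occurred in 0.603%, 7.86%, 8.51% and 5.38%, respectively. The 250 bases before the start site are printed 5′ to 3′ on the strand of the gene, with matches in capitals. They lie at chr10:80167589-80167838 (plus strand) for Cirbp, chr17:34972157-34972406 (minus) for Hspa1a, chr17:34959239-34959488 (minus) for Hspa1b, chr5:149636316-149636565 (minus) for Hsph1, chr8:83607925-83608174 (plus) for Dnajb1 and chr5:135887669-135887918 (plus) for Hspb1.
Cirbp: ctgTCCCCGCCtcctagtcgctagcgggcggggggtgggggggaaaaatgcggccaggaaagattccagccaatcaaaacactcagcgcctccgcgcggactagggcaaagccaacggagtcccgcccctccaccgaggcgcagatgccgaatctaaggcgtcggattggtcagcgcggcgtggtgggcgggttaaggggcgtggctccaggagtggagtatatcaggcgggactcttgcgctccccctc
Hspa1a: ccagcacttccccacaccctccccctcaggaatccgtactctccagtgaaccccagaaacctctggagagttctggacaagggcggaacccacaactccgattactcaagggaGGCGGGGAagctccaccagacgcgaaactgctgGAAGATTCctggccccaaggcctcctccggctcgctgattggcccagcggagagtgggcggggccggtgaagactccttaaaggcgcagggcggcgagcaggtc
Hspa1b: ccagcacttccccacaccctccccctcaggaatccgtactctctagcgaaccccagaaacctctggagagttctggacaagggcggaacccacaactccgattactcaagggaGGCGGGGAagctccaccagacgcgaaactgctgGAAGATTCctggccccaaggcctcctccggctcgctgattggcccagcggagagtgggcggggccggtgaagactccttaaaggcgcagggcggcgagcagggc
Hsph1: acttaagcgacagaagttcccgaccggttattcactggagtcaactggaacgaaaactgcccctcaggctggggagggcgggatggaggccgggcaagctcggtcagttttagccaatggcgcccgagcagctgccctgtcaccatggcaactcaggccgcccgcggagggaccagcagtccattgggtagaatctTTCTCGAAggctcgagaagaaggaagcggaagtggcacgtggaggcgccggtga
Dnajb1: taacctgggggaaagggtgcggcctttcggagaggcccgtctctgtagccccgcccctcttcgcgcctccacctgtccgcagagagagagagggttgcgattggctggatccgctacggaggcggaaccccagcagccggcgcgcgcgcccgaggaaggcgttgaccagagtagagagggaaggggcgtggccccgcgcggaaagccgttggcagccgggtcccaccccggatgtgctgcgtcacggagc
Hspb1: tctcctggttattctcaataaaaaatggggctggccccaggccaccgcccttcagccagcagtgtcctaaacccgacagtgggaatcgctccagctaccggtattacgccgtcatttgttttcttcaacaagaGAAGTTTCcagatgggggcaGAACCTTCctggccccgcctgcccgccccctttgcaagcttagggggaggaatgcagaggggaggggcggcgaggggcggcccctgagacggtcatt
Cirbp held TCCCCGCC at -247 and no heat shock element. Hspa1a and Hspa1b, tandem genes for the inducible HSP70, held GAANNTTC at -104 and TCCCCGCC on the opposite strand at -137, and the capitals mark its reverse complement there. Counted from 1 at the 5′ end of the printed run, their promoters differed at 3 of 250 bases (C44T, T47C and T249G, Hspa1a base first), none of them in a marked match. Hspb1 held GAANNTTC at -117 and -97. Hsph1 held TTCNNGAA at -54 and was the member with the whole 3-unit element, TTCTGGAAAGTTC, which lay just after its start site at +16. The Dnajb1 window held none of these letters. A match in a window is a description of its letters and not a measured binding site.

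No member passed the test for an ethanol effect, and the estimates ranged widely in size. Over all 16 mice, the estimate for ethanol was 31.9% higher for Hspa1b, 23.8% higher for Hspa1a and 14.2% higher for the HSP40 co-chaperone Dnajb1, and 13.6% lower for Cirbp. The small heat shock protein gene Hspb1 was at 8.35% higher. Rbm3 and the abundant chaperones Hspa8, Hsph1, Hsp90aa1 and Hsp90ab1 had estimates from -4.00% to 1.43%.

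With edgeR's quasi-likelihood test and Benjamini-Hochberg adjustment over all genes, 0 of the 10 members were called for ethanol over both nicotine levels, where 4.5% of 15592 genes tested were called. Likewise 0 of 10 were called in Water-Ethanol against WW (0.457% of 15323 genes called), in NE against NW (0% of 15361), in NE against WW (0.313% of 15313), in NW against WW (0% of 15344) and in the interaction of the 2 substances (0% of 15592). At an unadjusted p under 0.05 the members numbered 4 in the ethanol effect, where 22.9% of genes were under it, 5 in Water-Ethanol against WW (19.3%), 1 in NE against NW (11.9%), 3 in NE against WW (17.5%), 1 in NW against WW (8.44%) and 0 in the interaction (6.76%). DESeq2 called 2 members in the ethanol effect (Cirbp and Dnajb1, 7.8% of 13764 genes called), 2 in Water-Ethanol against WW (Hspa1b and Dnajb1, 5.1% of 11874), 1 in NW against WW (Rbm3, 0.987% of 12257) and 0 in NE against NW (0.634%), NE against WW (4.27%) and the interaction (0.0049%). On log2(FPKM + 1), limma called 1 member, Dnajb1, in the ethanol effect (5.57% of 13563 genes called) and 0 elsewhere. Of the 8 heat shock genes, 4 had estimates above 0 and 4 below 0 in the ethanol effect. Their median log2 fold change was 0.05 and that of all genes tested was 0.00208.

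**Figure D1:**
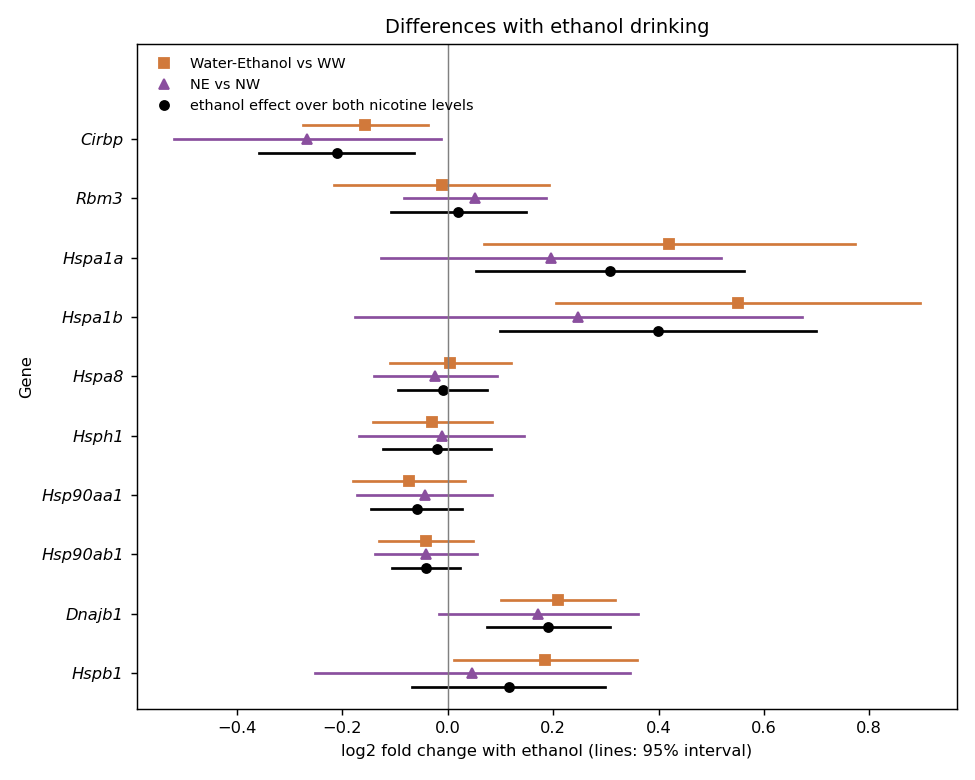
Log2 fold changes with ethanol for the 10 genes (horizontal axis) from edgeR, in Water-Ethanol against WW (squares), in NE against NW (triangles) and over both nicotine levels (circles), with lines for the 95% interval. Cirbp lies left of 0 in all 3, and Hspa1a, Hspa1b and Dnajb1 lie right of 0. The intervals of Rbm3, Hspa8, Hsph1, Hsp90aa1 and Hsp90ab1 include 0 in each. In NE against NW those of Hspa1a, Hspa1b, Dnajb1 and Hspb1 also include 0, and that of Hspb1 does so over both nicotine levels.

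Per length of transcript, the members spanned a wide range in these brains. Hspa8, the constitutive HSP70 that uncoats clathrin vesicles at synapses, had a median of 1223 FPKM over 16 mice. The 2 cytosolic HSP90 genes followed, with 709 FPKM for the constitutive Hsp90ab1 and 610 FPKM for the more inducible Hsp90aa1, and their ranges over mice overlapped. Hsph1, an HSP110 that helps HSP70 exchange nucleotide, was at 129 FPKM, and Rbm3 at 46.3. Dnajb1 at 34.4 and Cirbp at 28.2 overlapped each other. Hspb1, mainly a gene of glia and vessels in brain, was at 18.5 FPKM. Lowest were Hspa1b at 4.71 and Hspa1a at 3.09 FPKM, whose ranges also overlapped, and every other pair of neighbours in this order was separated in all mice.

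**Figure D2:**
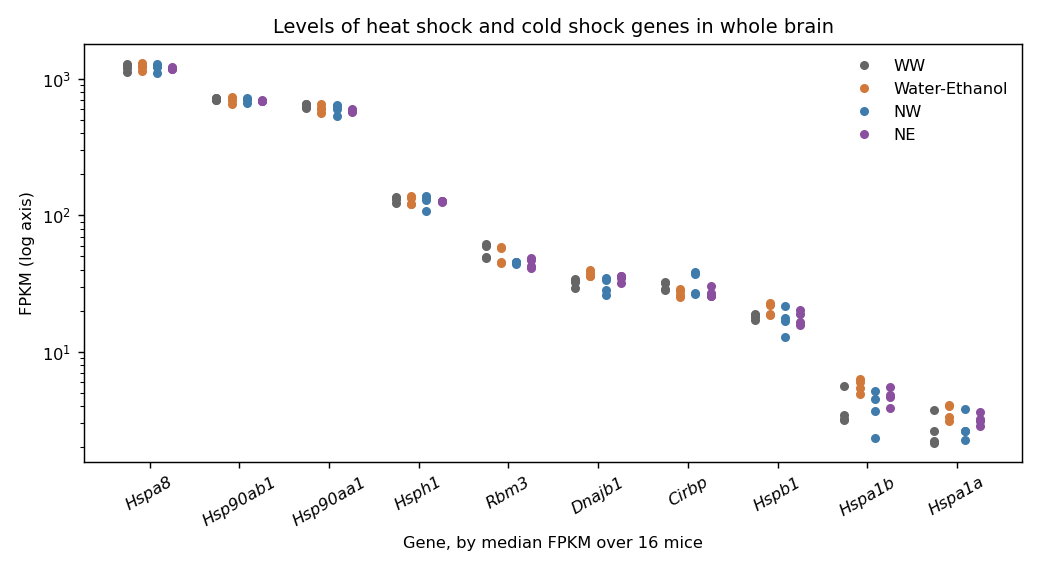
FPKM of each gene (log axis), ordered by median over 16 mice, with 1 point per mouse and 1 colour per group. The inducible Hspa1b and Hspa1a lie between 2.14 and 6.29 FPKM and Hspa8 between 1109 and 1315 FPKM, with the groups side by side within each gene.

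Some of these reads cannot be assigned to 1 gene with certainty. Of all 150-base stretches of the transcript, the read length of the study, 39.7% of Hspa1a and 40.5% of Hspa1b also occurred in another gene, nearly all of them in each other. The share was 36.2% for Hsp90aa1, 36.6% for Hspb1 and 21.9% for Hspa8, in each case with pseudogenes, 2.42% for Rbm3 and 0% for Cirbp, Hsph1, Hsp90ab1 and Dnajb1. Exons of Rbm3 overlap those of the antisense gene Rbm3os by 94 bases, and whether counting used strand is not given in the sources used here. Levels of Hspa1a and Hspa1b are therefore uncertain one against the other, and the sum of both was also tested.

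**Figure D3:**
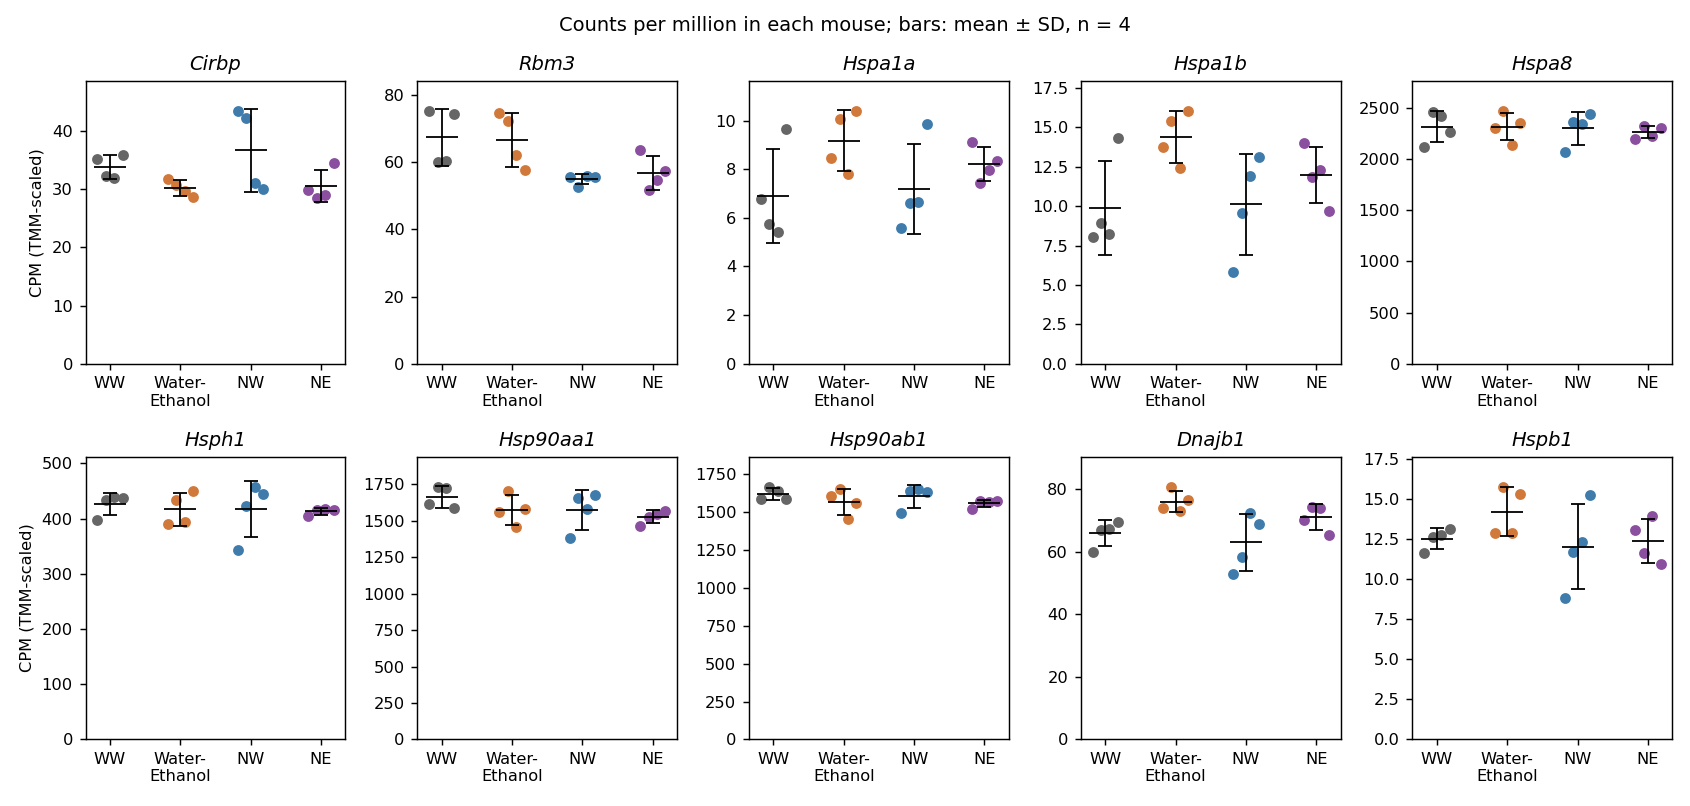
CPM of each member in every mouse (points), with the mean and SD of 4 mice per group (bars), each axis starting at 0. Cirbp is at 43.4 and 42.2 CPM in 2 NW mice and at 31.0 and 29.98 CPM in the other two, and Hspa1b is at 14.3 CPM in 1 WW mouse while the other WW mice lie between 8.04 and 8.92 CPM.

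Cirbp (chr10:80167841-80171653, plus strand, 7 exons), which encodes the cold-inducible RNA-binding protein, was lower in Water-Ethanol than in WW mice by a small margin. Its CPM was 35.2, 32.2, 31.9 and 35.8 in WW mice 18 to 21, and 31.8, 30.7, 29.6 and 28.7 in Water-Ethanol mice 13 to 16. The groups did not overlap, but the highest Water-Ethanol mouse and the lowest WW mouse were at 31.8 and 31.9 CPM. The log2 fold change was -0.16 ± 0.05 (SE, n = 4 and 4), with a 95% interval of -0.27 to -0.04 and an edgeR adjusted p of 0.154. An exact two-sided permutation test gave p = 0.0286, the smallest that 4 against 4 mice allow. Groups that do not overlap were found for 2 of the 10 members in this comparison, Cirbp and Dnajb1, and for 10.8% of all genes tested.

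On a nicotine background, Cirbp depended on the NW mice. NW 7 and NW 8 had 43.4 and 42.2 CPM, the highest of all 16, while NW 10 and NW 11 had 31.0 and 29.98. NE mice had 29.9, 28.6, 28.9 and 34.5 CPM, so that 3 of 4 lay below every NW mouse and NE 5 lay among them. The log2 fold change of NE against NW was -0.27 ± 0.12 (SE, n = 4 and 4, edgeR adjusted p = 0.398), with an exact permutation p of 0.171. Without NW 7 alone it was -0.17, and with both NW 7 and NW 8 left out it was -0.0041. These 2 mice also had the lowest summed CPM of 8 activity-regulated genes such as Fos and Arc, a list chosen after the data were seen. They had 455 and 327 CPM against 558 to 736 in the other mice. Their Rn45s was 13408 and 7353 CPM, above every mouse outside NW. NW 7 also had the lowest summed CPM of neuron markers of all 16 mice (4718) and the highest of blood markers (6.04). For NW 8 these sums were 5183 and 2.63 CPM. The part of these differences in the result was not tested.

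Over both nicotine levels Cirbp had a log2 fold change of -0.21 ± 0.07 (SE, n = 16 mice) for ethanol, with a 95% interval of -0.36 to -0.06 and an edgeR adjusted p of 0.0875. DESeq2 called it, with an adjusted p of 0.0454. In edgeR's test it was called without NW 10 (adjusted p = 0.0396, 5.73% of genes called) and without NW 11 (0.0291, 4.74%), the 2 NW mice with low Cirbp. With both NW 7 and NW 8 left out the log2 fold change was -0.08 (adjusted p = 0.379), and over all alternatives the adjusted p ran from 0.0291 to 0.379. With the cerebellum marker score as a covariate it was -0.22 (adjusted p = 0.0726).

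Rbm3 (chrX:8138975-8145802, minus strand, 8 exons), the other cold-inducible RNA-binding protein gene, had nearly the same level in Water-Ethanol and WW mice. It had 75.1, 59.99, 60.2 and 74.4 CPM in WW mice 18 to 21 and 74.5, 72.1, 62.0 and 57.7 in Water-Ethanol mice 13 to 16. The 2 groups covered the same range, with a log2 fold change of -0.01 ± 0.09 (SE, n = 4 and 4) and a 95% interval of -0.22 to 0.19 (edgeR adjusted p = 0.964). The ethanol estimate over both nicotine levels was 0.02, with an interval of -0.11 to 0.15.

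Rbm3 instead had its widest separation, among the comparisons run, between NW and WW mice. NE against Water-Ethanol was not tested, and the mice of those groups overlapped (51.6 to 63.6 and 57.7 to 74.5 CPM). NW mice 7, 8, 10 and 11 had 55.5, 52.6, 55.9 and 55.6 CPM, all below the 4 WW mice, and NE mice 2 to 5 had 63.6, 51.6, 54.8 and 57.4, of which 3 lay below every WW mouse. NW against WW had a log2 fold change of -0.30 ± 0.08 (SE, n = 4 and 4), with an edgeR adjusted p of 0.275 and an exact permutation p of 0.0286. Rbm3 was the 1 member of 10 whose NW and WW mice did not overlap, a pattern found in 5.98% of genes. DESeq2 called Rbm3 in this comparison with an adjusted p of 0.0420, the 1 call among 18 alternatives. With the GC offset its log2 fold change was -0.21 (edgeR adjusted p = 0.905). NE against WW, which shares the WW mice, gave -0.24 ± 0.09 (SE, n = 4 and 4, edgeR adjusted p = 0.185).

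The inducible HSP70 genes had the largest estimates with ethanol and the widest spread among mice. Hspa1b (chr17:34956429-34959238, minus strand, 1 exon) had 8.04, 8.92, 8.24 and 14.3 CPM in WW mice 18 to 21 and 13.7, 15.4, 12.4 and 16.02 in Water-Ethanol mice 13 to 16. All Water-Ethanol mice lay above WW 18, 19 and 20, and WW 21 lay among them. The mean was 9.87 ± 2.97 CPM (SD, n = 4) in WW and 14.4 ± 1.63 CPM (SD, n = 4) in Water-Ethanol. This was a log2 fold change of 0.55 ± 0.16 (SE, n = 4 and 4), with a 95% interval of 0.20 to 0.90, an edgeR adjusted p of 0.104 and an exact permutation p of 0.0857.

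Hspa1a (chr17:34969359-34972156, minus strand, 1 exon) showed the same arrangement of mice. WW mice 18 to 21 had 6.76, 5.76, 5.42 and 9.65 CPM and Water-Ethanol mice 13 to 16 had 8.46, 10.1, 7.81 and 10.4. Again WW 21 alone among the WW mice reached the Water-Ethanol range. Its log2 fold change was 0.42 ± 0.16 (SE, n = 4 and 4), with an interval of 0.07 to 0.77 and an edgeR adjusted p of 0.186. With the counts of both genes summed it was 0.50 (adjusted p = 0.118).

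In edgeR's fit of the 2 groups, members were called in this comparison without WW 21 and not with it. Without it, edgeR called Hspa1b (log2 fold change 0.78, adjusted p = 0.00378), Hspa1a (0.63, adjusted p = 0.0174) and Dnajb1 (0.24, adjusted p = 0.0244) in Water-Ethanol against WW, and the share of all genes called was 5.17% in place of 0.457%. With WW 21 included, DESeq2 called Hspa1b (0.55, adjusted p = 0.0195) and Dnajb1 (0.21, adjusted p = 0.0112). WW 21 was also the mouse with the lowest cerebellum marker sum. With a score of these markers as a covariate over 16 mice, Hspa1b had a log2 fold change of 0.74 (adjusted p = 0.0453) in this comparison, where 1.44% of genes were called, and Hspa1a 0.53 (adjusted p = 0.101). NW 10, the other mouse with few cerebellum transcripts, had 11.9 CPM of Hspa1b and 6.64 of Hspa1a, within the range of the other NW mice.

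On the nicotine background the HSP70 estimates were smaller and their intervals included 0. Hspa1b had 5.82, 9.58, 11.9 and 13.2 CPM in NW mice 7, 8, 10 and 11 and 14.03, 11.9, 12.3 and 9.71 in NE mice 2 to 5, and Hspa1a had 5.59, 6.62, 6.64 and 9.84 against 9.12, 7.43, 7.99 and 8.34. The groups overlapped for both genes, with NW 7 the lowest of all 16 mice for Hspa1b. The log2 fold changes of NE against NW were 0.25 ± 0.20 for Hspa1b and 0.20 ± 0.15 for Hspa1a (SE, n = 4 and 4, edgeR adjusted p = 0.640 and 0.625). Without NW 7 and NW 8 they turned to -0.07 and -0.01. Without NW 7 alone they were 0.055 and 0.092, and without NW 11 alone 0.40 and 0.39 (edgeR adjusted p = 0.381 and 0.177).

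Over both nicotine levels the ethanol estimate was 0.40 ± 0.14 for Hspa1b (95% interval 0.10 to 0.70, edgeR adjusted p = 0.109) and 0.31 ± 0.12 for Hspa1a (0.05 to 0.56, adjusted p = 0.141; SE, n = 16 mice). Without WW 21 both were called, with adjusted p-values of 0.0290 and 0.0342 (4.33% of genes called), and without NW 11 Hspa1a was called as well (0.0381, 4.74% of genes called). With the cerebellum covariate Hspa1b was called (0.54, adjusted p = 0.0160, 7.27% of genes called) and Hspa1a was not (0.39, adjusted p = 0.0562). With NW 7 and NW 8 left out neither was called, at 0.24 (adjusted p = 0.282) and 0.20 (adjusted p = 0.386).

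Dnajb1 (chr8:83608175-83611903, plus strand, 3 exons), the HSP40 that delivers clients to HSP70 and stimulates its ATPase, came closest to a call. It had 60.003, 67.0, 67.2 and 69.3 CPM in WW mice 18 to 21 and 74.0, 80.6, 73.0 and 76.3 in Water-Ethanol mice 13 to 16. The groups did not overlap, with a gap from the highest WW mouse at 69.3 to the lowest Water-Ethanol mouse at 73.0 CPM. In the fit this gave a log2 fold change of 0.21 ± 0.05 (SE, n = 4 and 4), with a 95% interval of 0.10 to 0.32, an edgeR adjusted p of 0.0747 and an exact permutation p of 0.0286.

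In NW mice 7, 8, 10 and 11 Dnajb1 had 52.7, 58.3, 72.2 and 68.7 CPM, and in NE mice 2 to 5 it had 70.2, 74.1, 74.0 and 65.3. The same NW 7 and NW 8 that were high for Cirbp were the lowest of all 16 mice for Dnajb1. The log2 fold change of NE against NW was 0.17 ± 0.09 (SE, n = 4 and 4, edgeR adjusted p = 0.457), and it was 0.10 without NW 7 alone and 0.0065 without both of those mice. Over both nicotine levels it was 0.19 ± 0.06 (SE, n = 16 mice), with a 95% interval of 0.07 to 0.31 and an edgeR adjusted p of 0.0551. DESeq2 (0.0208), limma on log2(FPKM + 1) (0.0452) and the cerebellum covariate in edgeR (0.0135) gave adjusted p-values on the other side of the threshold, as did leaving out NW 10, NW 11 or NE 5 (0.0146, 0.0356 and 0.0450, with 5.73%, 4.74% and 4% of genes called). Without NW 7 and NW 8 the estimate was 0.11, with an adjusted p of 0.159, the highest of its alternatives.

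Hspb1 (chr5:135887919-135889563, plus strand, 3 exons), the small heat shock protein that holds unfolded clients without ATP, had 11.6, 12.6, 12.8 and 13.2 CPM in WW mice 18 to 21 and 12.9, 15.8, 12.9 and 15.3 in Water-Ethanol mice 13 to 16. Water-Ethanol 14 and 16 exceeded the WW range, and 13 and 15 were inside it. Hspb1 thus had a log2 fold change of 0.19 ± 0.08 (SE, n = 4 and 4, edgeR adjusted p = 0.231). NE mice had 10.9 to 13.96 CPM and NW mice 8.81 to 15.3, with a log2 fold change of 0.05 ± 0.14 (SE, n = 4 and 4, edgeR adjusted p = 0.916).

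The abundant chaperones had ethanol estimates near 0, with narrow intervals. Hspa8 (chr9:40801273-40805199, plus strand, 9 exons) had 2121, 2457, 2422 and 2264 CPM in WW mice 18 to 21 and 2304, 2465, 2141 and 2352 in Water-Ethanol mice 13 to 16, with NW mice between 2065 and 2440 and NE mice between 2195 and 2326. The ethanol estimate over both nicotine levels was -0.0094, with a 95% interval of -0.09 to 0.07. Hsph1 (chr5:149616845-149636315, minus strand, 18 exons), the member whose window held the whole heat shock element, had 397 to 440 CPM in WW, 391 to 450 in Water-Ethanol, 344 to 457 in NW and 404 to 417 in NE. Its ethanol estimate was -0.02, with an interval of -0.12 to 0.08, and the groups overlapped in all 4 pairwise comparisons.

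The cytosolic HSP90 genes, whose products mature kinases and steroid receptors, had lower levels in NE than in WW mice, by margins that did not pass the test. Hsp90aa1 (chr12:110691036-110696395, minus strand, 11 exons) had 1618, 1732, 1726 and 1584 CPM in WW mice 18 to 21 and 1467, 1526, 1545 and 1570 in NE mice 2 to 5. Hsp90ab1 (chr17:45567778-45573261, minus strand, 11 exons) had 1587, 1666, 1637 and 1590 CPM against 1520, 1571, 1566 and 1572. For both genes every NE mouse lay below every WW mouse, the pattern found for 2 of the 10 members and for 10.7% of all genes in NE against WW (0 members and 7.41% of genes in NE against NW), with an exact permutation p of 0.0286 for each.

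The log2 fold change of NE against WW was -0.12 ± 0.04 for Hsp90aa1 and -0.05 ± 0.03 for Hsp90ab1 (SE, n = 4 and 4, edgeR adjusted p = 0.160 and 0.422). Water-Ethanol mice had 1457 to 1706 CPM of Hsp90aa1 and 1455 to 1655 of Hsp90ab1, and NW mice 1381 to 1680 and 1493 to 1652, so these groups overlapped WW. The ethanol estimates over both nicotine levels were -0.06 for Hsp90aa1 (95% interval -0.14 to 0.03) and -0.04 for Hsp90ab1 (-0.11 to 0.02).

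The remaining members did not reach a call in NE against WW either. Hspa1b and Hspa1a stood at 0.29 ± 0.17 and 0.26 ± 0.16, Dnajb1 at 0.11 ± 0.05 and Cirbp at -0.15 ± 0.07 (log2 fold changes, SE, n = 4 and 4, edgeR adjusted p from 0.281 to 0.421). Without WW 21, edgeR called Hspa1a (0.47, adjusted p = 0.0455) and Hspa1b (0.52, adjusted p = 0.0405), where 1.84% of genes were called. Nicotine alone gave 0.12 for Cirbp, 0.06 for Hspa1a, 0.03 for Hspa1b, -0.07 for Dnajb1 and -0.06 for Hspb1 on the log2 scale, each with a 95% interval that included 0. Hspa8, Hsph1 and Hsp90ab1 were between -0.04 and -0.01 with nicotine alone, and Hsp90aa1 at -0.08.

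Whether the ethanol difference itself depended on nicotine was tested by the interaction. Because NE mice were reported to have drunk more ethanol than Water-Ethanol mice, nicotine and ethanol dose cannot be told apart in this interaction. For Hspa1b it was -0.30 ± 0.29, for Hspa1a -0.22 ± 0.24, for Cirbp -0.10 ± 0.14 and for Dnajb1 -0.03 ± 0.11 (log2 scale, SE, n = 16 mice, edgeR adjusted p from 0.887 to 0.979). The 95% interval for Hspa1b ran from -0.90 to 0.30, so neither an equal nor a clearly smaller response in nicotine-drinking mice lay outside it. Water-Ethanol against WW and NE against NW share no mouse, whereas the comparisons against WW share the 4 WW mice.

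**Figure D4:**
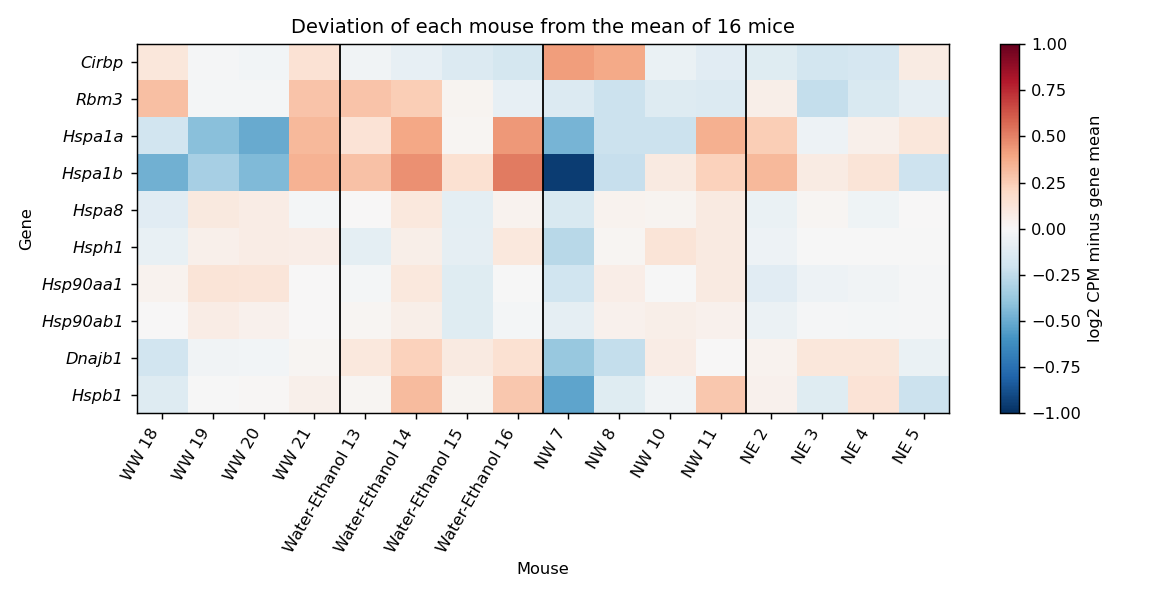
Deviation of log2 CPM of each gene (rows) in each mouse (columns) from the mean of 16 mice, with red above and blue below the mean and vertical lines between groups. NW 7 is 0.42 above the mean for Cirbp and 0.95 below it for Hspa1b, and it is the lowest mouse for 6 of the 8 heat shock genes.

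The mice differed from one another within groups in a way that several members shared. NW 7 had the lowest level of Hspa1b, Hspa8, Hsph1, Hsp90aa1, Dnajb1 and Hspb1 and the highest level of Cirbp. After each group's mean was removed, Cirbp and Dnajb1 had a Pearson's r of -0.83 (permutation p = 0.0223) and a Spearman's rho of -0.71 (permutation p = 0.0483) over 16 mice, with labels permuted within groups. Of 9 such relations of Cirbp, those with Hspb1 (r = -0.71, permutation p = 0.0149) and Hsph1 (r = -0.64, permutation p = 0.0322) came next in size, and the adjusted p was 0.0967 for each of the 3. None passed 0.05 after adjustment. When the 2 mice farthest in Cirbp, NW 7 and NW 8, were dropped after group means were removed, r was -0.74 with Dnajb1. The NW mean still held those 2 mice, so this value is not free of them. Without the NW group r was -0.53.

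**Figure D5:**
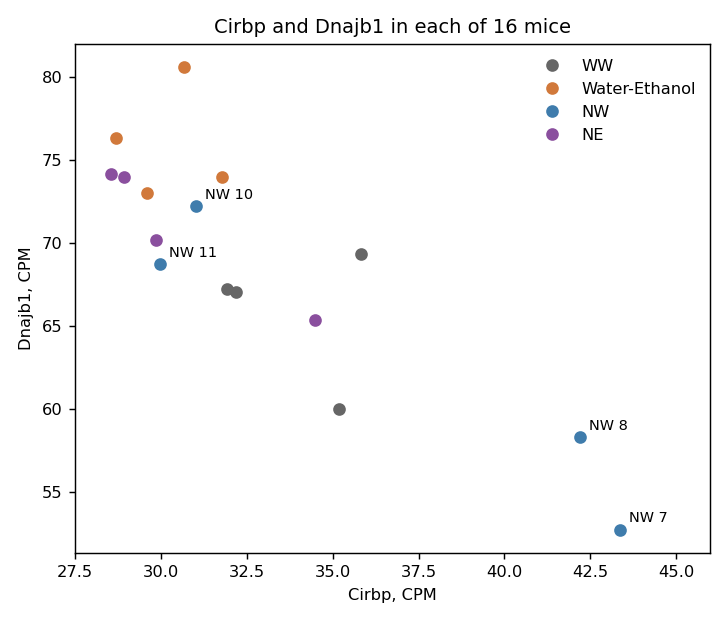
CPM of Cirbp (horizontal axis) and Dnajb1 (vertical axis) in each of 16 mice, coloured by group, neither axis starting at 0. NW 7 and NW 8 lie at the lower right, at 43.4 and 42.2 CPM of Cirbp and 52.7 and 58.3 CPM of Dnajb1, while the Water-Ethanol mice lie between 28.7 and 31.8 CPM of Cirbp and between 73.0 and 80.6 CPM of Dnajb1.

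Between the 2 cold shock genes no relation passed the test. Cirbp and Rbm3 had r = 0.26 (permutation p = 0.127, rho = 0.38, permutation p = 0.0861, adjusted p = 0.209), and r was 0.67 in the 12 mice outside NW. Levels of Cirbp with Hspa1b (r = -0.56, rho = -0.45), Hspa8 (-0.45, rho = -0.47), Hsp90aa1 (-0.37, rho = -0.31), Hsp90ab1 (-0.32, rho = -0.24) and Hspa1a (-0.23, rho = -0.07) had adjusted permutation p-values from 0.209 to 0.643. Without the NW group the r of Cirbp was 0.41 with Hspa1a, -0.05 with Hspa1b, -0.22 with Hspa8, -0.07 with Hsp90aa1, 0.03 with Hsp90ab1, -0.30 with Hsph1 and -0.46 with Hspb1.

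The genes whose level over the 16 mice was most like that of a member were listed as a description, with group differences left in and with all genes read from the same libraries. For Cirbp these were Efnb3 (Pearson's r = 0.88) and Tcta (0.87). For Dnajb1 they were Phospho2 (0.97), Fgfr1op2 (0.93) and Papola (0.90), and for Hspb1 Ints8 (0.90), Dnajc3 (0.87), an endoplasmic reticulum HSP40, and Chordc1 (0.87), an HSP90 co-chaperone. Hsp90aa1 was most like Hspd1 (0.96), the mitochondrial chaperonin, Ube2n (0.95) and Rab1 (0.95). The closest gene was Mitd1 (0.86) for Rbm3, Calhm2 (0.85) for Hspa1a, Sowaha (0.89) for Hspa1b, Wdr82 (0.91) for Hspa8, Fam19a1 (0.93) for Hsph1 and Vps35 (0.93) for Hsp90ab1.

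The other genes of the chaperone network gave few calls. In the ethanol effect over both nicotine levels, the 11 other HSP70 and HSP110 genes, 16 genes of HSP90 co-chaperones and relatives, 20 HSP40 genes, 10 nucleotide exchange and client factors, 6 of 8 small heat shock protein genes that could be tested, 10 chaperonins, 5 heat shock factors and regulators, and 8 of 9 cold shock domain and related genes held 0 calls by edgeR, where 4.5% of all genes were called. Among 15 clock genes, included because Cirbp follows the daily temperature rhythm, 1 was called, Nr1d2, a repressor of the clock, which rose by a log2 fold change of 0.11 ± 0.03 (SE, n = 16 mice, adjusted p = 0.0472). The closest in the other lists was Hspa9, the mitochondrial HSP70, at -0.09 (adjusted p = 0.0729). Tef, a clock output gene, was at 0.10 (adjusted p = 0.0604) and Cry2, a clock repressor, at 0.10 (adjusted p = 0.0917).

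The other named genes of these lists, the 2 with the smallest p in each, gave the following values. Bag3, a stress-inducible partner of HSP70, had a log2 fold change of 0.20 (edgeR adjusted p = 0.0810) over both nicotine levels and 0.26 (adjusted p = 0.0614) in Water-Ethanol against WW, and Bag2 had 0.14 (adjusted p = 0.0858). Hsf1 was at 0.10 (adjusted p = 0.175) and Hsf2 at 0.08 (adjusted p = 0.231). Dnaja4 was at 0.12 (adjusted p = 0.0786), Dnaja3 at -0.10 (adjusted p = 0.0803), and the HSP90 cofactors Ahsa2 and Unc45a at 0.16 (adjusted p = 0.0848) and 0.11 (adjusted p = 0.122).

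The endoplasmic reticulum chaperone gene Hspa5 was at 0.17 (edgeR adjusted p = 0.156). All 10 chaperonin genes, which encode the mitochondrial and cytosolic folding chambers, had estimates below 0, with a median log2 fold change of -0.06 and Cct3 (-0.08, adjusted p = 0.143) and Cct8 (-0.06, adjusted p = 0.270) at the smallest p-values. Markers of several cell types also lay wholly or mostly on 1 side in the ethanol effect, and others did not. Endothelium markers were 3 higher and 3 lower (1 called lower), and neuron markers 2 higher and 3 lower (0 called). Choroid plexus markers were higher for 5 of 6 (1 called). Markers of meninges and bone (4 of 4 tested) and of olfactory epithelium (5 of 5) were lower, with 0 called. Estimates were below 0 for 5 of 5 microglia markers (median -0.17, 1 called), 5 of 5 oligodendrocyte markers (median -0.09, 0 called), 5 of 5 astrocyte markers (median -0.06, 1 called) and 4 of 5 mural cell markers (median -0.09, 1 called), and above 0 for 10 of 10 cerebellum markers (median 0.20, 0 called). The summed CPM of cerebellum markers was low in 2 mice without ethanol, WW 21 (567 CPM) and NW 10 (719 CPM). Its group medians were 1486 CPM in WW and 1507 in Water-Ethanol, and 1489 in NW and 1439 in NE. The share of these 2 mice in the cerebellum estimates was not tested. The summed CPM of microglia markers was 254 to 323 in WW, 247 to 265 in Water-Ethanol, 249 to 281 in NW and 226 to 276 in NE, and that of mural cell markers was 129 to 138 in WW, 123 to 127 in Water-Ethanol, 124 to 139 in NW and 118 to 125 in NE. Their part in the chaperonin values and in those of the members was not tested. Hspb11 was at -0.14 (adjusted p = 0.364) and Hspb6 at -0.08 (adjusted p = 0.531) among small heat shock protein genes, and Lin28b at 0.18 (adjusted p = 0.233) among cold shock domain genes. In NE against WW, where 0.313% of all genes were called, 1 of the 16 genes of HSP90 co-chaperones and relatives was called, Ptges3, the p23 protein that stabilizes closed HSP90, which fell by 0.21 on the log2 scale (SE 0.04, n = 4 and 4, edgeR adjusted p = 0.0453). In NW against WW, which shares the WW mice, Ptges3 was at -0.22 ± 0.07 (SE, n = 4 and 4, adjusted p = 0.420), and in NE against NW at -0.0014. Its ethanol estimate over both nicotine levels was -0.05 (adjusted p = 0.538).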

How the data were processed

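Whole-brain RNA of 16 mice was sequenced as 150 nt single reads. Per the labels and the study's methods, the authors ran bcl2fastq 1.8.4, Trimmomatic 0.32, TopHat2 and Cufflinks with Cuffdiff against mm10 (GRCm38). The authors deposited raw counts per gene (24062 genes) and FPKM values (23991 genes). The program that made the counts is not given in the sources used here, and the library kit is named as unstranded in the labels and as stranded in the methods, so reads of overlapping antisense genes may be mixed. Groups came from the labels.

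The counts were tested with edgeR 4.0.16 (R 4.3.3): TMM factors, filterByExpr, quasi-likelihood test and Benjamini-Hochberg adjustment over all genes tested, called at an adjusted p under 0.05. Pairwise fits held the 2 groups compared. The ethanol effect and the interaction came from 1 fit of 16 mice. SEs were derived from the log2 fold change and its F statistic. Levels are TMM-scaled CPM, and comparisons of levels between genes used FPKM. Single genes were also tested by exact two-sided permutation over mice, and relations of Cirbp by 100000 permutations within groups. The test was checked on simulated counts with the same spread among mice for all genes and no outlying mice. That check does not cover members that varied widely among mice. Alternatives were RLE factors, DESeq2 1.42.0, no filter, limma 3.58.1 on log2(FPKM + 1) and on log2(FPKM + 0.1), a fit of 16 mice, a cerebellum score as covariate, a GC offset, Hspa1a and Hspa1b summed, and each mouse left out. Leaving out both NW 7 and NW 8 was added after seeing the data.

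The 10 genes, the companion lists and the tests were chosen with earlier results of these data known. Named companions were all those called in any comparison and, per list, the 2 with the smallest p in the ethanol effect. Some genes that these rules name are not reported here. Each sample was a separate mouse.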

Additional observations from a re-analysis of the deposited data

Results flagged for a closer look

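In 6 of the 40 combinations of gene and group, 1 mouse lay apart from the other three of its group, with a gap to its nearest neighbour that, as a share of the range of the group, exceeded Dixon's 95% critical value. Chance does this in about 1 in 20 groups. Hspa1b was 14.3 CPM in WW 21, against 8.92 CPM in the next WW mouse. Without this mouse edgeR called Hspa1b in Water-Ethanol against WW, and with it DESeq2 did. The edgeR fit with the cerebellum covariate also called Hspa1b, but WW 21 had the lowest score (-1.28) and NW 10 the next lowest (-0.91). The weight of these mice in that fit was not tested. Rbm3 was 52.6 CPM in NW 8, below the next at 55.5 CPM, a small gap in a group of small spread. Hsph1 was 397 CPM in WW 18 and 404 CPM in NE 2, each the lowest of its group. Hsp90ab1 was 1493 CPM in NW 7 and 1520 CPM in NE 2, again each the lowest of its group.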

How the results depend on the processing

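Of 1200 results of a gene under an alternative, 1106 kept their direction, 94 reversed, 23 gained a call and 0 lost one, since no member was called to begin with. Members called numbered 2 with DESeq2 and 1 with the cerebellum covariate in Water-Ethanol against WW, 1 with DESeq2 in NW against WW, and 2 with DESeq2, 1 with limma at either pseudocount and 2 with the covariate in the ethanol effect. With each mouse left out, members called ranged from 0 to 3 in Water-Ethanol against WW, from 0 to 2 in NE against WW and from 0 to 3 in the ethanol effect. Over all genes, where the members are 10, calls in Water-Ethanol against WW were 70, and 605 with DESeq2, 143 without a filter, 28 in the fit of 16 mice, 225 with the covariate, 36 with the GC offset and 0 to 797 with a mouse left out. In the ethanol effect the members' background was 702 calls, and 1073 with DESeq2, 1133 with the covariate, 263 without NW 7 and NW 8 and 280 to 899 with a mouse left out. In NE against NW, where 0 members were called, genes called went from 0 to 92 with DESeq2, 184 with the covariate and 57 in the fit of 16 mice. In NW against WW the same settings gave 121, 234 and 112 in place of 0 beside the members. In NE against WW, calls beside the members were 48, and 508 with DESeq2, 229 with the covariate, 12 with the GC offset, 24 and 25 with limma and 0 to 283 with a mouse left out. In the interaction DESeq2 and the covariate each called 1 gene, no member. The causes were not tested.

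Reversals concerned log2 fold changes near 0 or the NW mice. Without NW 7 and NW 8, NW against WW turned to -0.15 for Cirbp, 0.046 for Hspa8, 0.078 for Hsph1, 0.021 for Hsp90ab1, 0.10 for Dnajb1 and 0.14 for Hspb1. NE against NW turned to -0.011 for Hspa1a, -0.067 for Hspa1b and -0.16 for Hspb1, and the interaction to 0.16 for Cirbp, -0.092 for Hsph1, -0.018 for Hsp90aa1 and -0.033 for Hsp90ab1. The covariate turned Rbm3 to 0.025 and Hspa8 to -0.00016 in Water-Ethanol against WW, Hsph1 to 0.011 in NE against NW and 0.0037 in the ethanol effect, and Hspb1 to 0.0018 in NE against WW. The GC offset turned Rbm3 to 0.033 in Water-Ethanol against WW and -0.0013 in the interaction, Hspa1b to -0.015 in NW against WW, Hspa8 to 0.0011 in NE against WW, 0.017 in NW against WW and 0.0069 in the ethanol effect, and Hsp90aa1 to -0.0081 in the interaction. Without a filter Hspa8 was -0.00056 in Water-Ethanol against WW. With limma on FPKM, pseudocounts 1 and 0.1, Rbm3 turned to -0.0039 and -0.0041 in NE against NW and to -0.048 and -0.049 in the ethanol effect, and Hsph1 to 0.0071 and 0.0072 in NE against NW.

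With each mouse left out, signs also varied. In the ethanol effect the range was -0.0090 to 0.051 for Rbm3, -0.034 to 0.0081 for Hspa8 and -0.061 to 0.0044 for Hsph1. In Water-Ethanol against WW the range was -0.071 to 0.050 for Rbm3 and -0.035 to 0.038 for Hspa8. In NE against NW the range was -0.010 to 0.10 for Rbm3, -0.072 to 0.0054 for Hspa8, -0.093 to 0.037 for Hsph1 and -0.078 to 0.18 for Hspb1. In NE against WW the range was -0.075 to 0.042 for Hspb1. In NW against WW the range was -0.13 to 0.27 for Hspa1a, -0.12 to 0.27 for Hspa1b, -0.050 to 0.036 for Hspa8, -0.095 to 0.045 for Hsph1, -0.042 to 0.016 for Hsp90ab1, -0.15 to 0.0090 for Dnajb1 and -0.20 to 0.062 for Hspb1. In the interaction the range was -0.073 to 0.014 for Hspa8, -0.061 to 0.066 for Hsph1, -0.025 to 0.073 for Hsp90aa1, -0.032 to 0.029 for Hsp90ab1, -0.11 to 0.035 for Dnajb1 and -0.26 to 0.00032 for Hspb1. No paired analysis was possible because no mouse number is shared between groups. Hspa1a and Hspa1b had the fewest reads of the members, with 164 to 321 and 181 to 459 per mouse.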
